A study of Canis lupus familiaris with 16 samples.

Results

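The 10 genes described here mark blood vessel lining cells or carry vascular endothelial growth factor (VEGF) signals in canine soft tissue sarcomas. They were chosen by name as 4 genes of endothelial identity and junctions (PECAM1, CDH5, VWF and CLDN5), the receptors TIE1 and TEK, the VEGF receptors KDR, FLT1 and FLT4, and the ligand VEGFA. All 10 were found among the 41818 genes of the deposited count table, and all 10 were among the 15408 genes that passed the count filter. The RNA came from formalin-fixed, paraffin-embedded sections of 16 tumors of dogs, with no treatment stated, sequenced as bulk RNA.

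Tumor types follow the molecular identity given to each tumor from its expression. The fibrosarcomas (FS, 4 tumors) came from dogs aged 9 to 13 years. The peripheral nerve sheath tumors (PNST, 6 tumors) came from dogs aged 8 to 13 years, and the perivascular wall tumors (PWT, 6 tumors) from dogs aged 2 to 14 years. In 2 tumors this identity differs from the histology: S1-10 was a PWT by histology and is a PNST here, and S2-8 was an FS by histology and is a PWT here. The study reassigned these 2 by clustering on genes that differed between the types. The types were thus partly set from the counts tested here, and the p-values do not allow for this. The PNST S1-4 and S1-5 have identical descriptions and may come from 1 dog. The label prefixes S1 and S2 may mark sequencing groups and are spread unevenly, with 3 of 4 FS, 5 of 6 PNST and 1 of 6 PWT in S1. Counts on genes ranged from 507728 to 2781899 in FS, from 1545839 to 4311876 in PNST and from 726025 to 2234165 in PWT. Levels are in CPM, counts scaled to a common library size, and CPM of different genes are not compared because gene lengths were not available.

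Blood and lymphatic vessels are lined by endothelial cells, which hold together through junction proteins and respond to growth factors through receptor tyrosine kinases. VEGFA acts through KDR and FLT1 on blood vessels, FLT4 binds VEGFC and VEGFD and is best known from lymphatic vessels, and TEK with TIE1 receives angiopoietin signals that steady mature vessels. Sarcomas need a blood supply to grow, and perivascular wall tumors are thought to derive from the mural cells that wrap vessels rather than from endothelium.

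FLT4 was the member with the clearest difference between the types: it was higher in FS than in PNST and PWT. TEK had lower values in FS, short of the threshold of the main test. The other 8 members overlapped widely between the types. The plot of every member by tumor shows these levels.

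**Figure D1:**
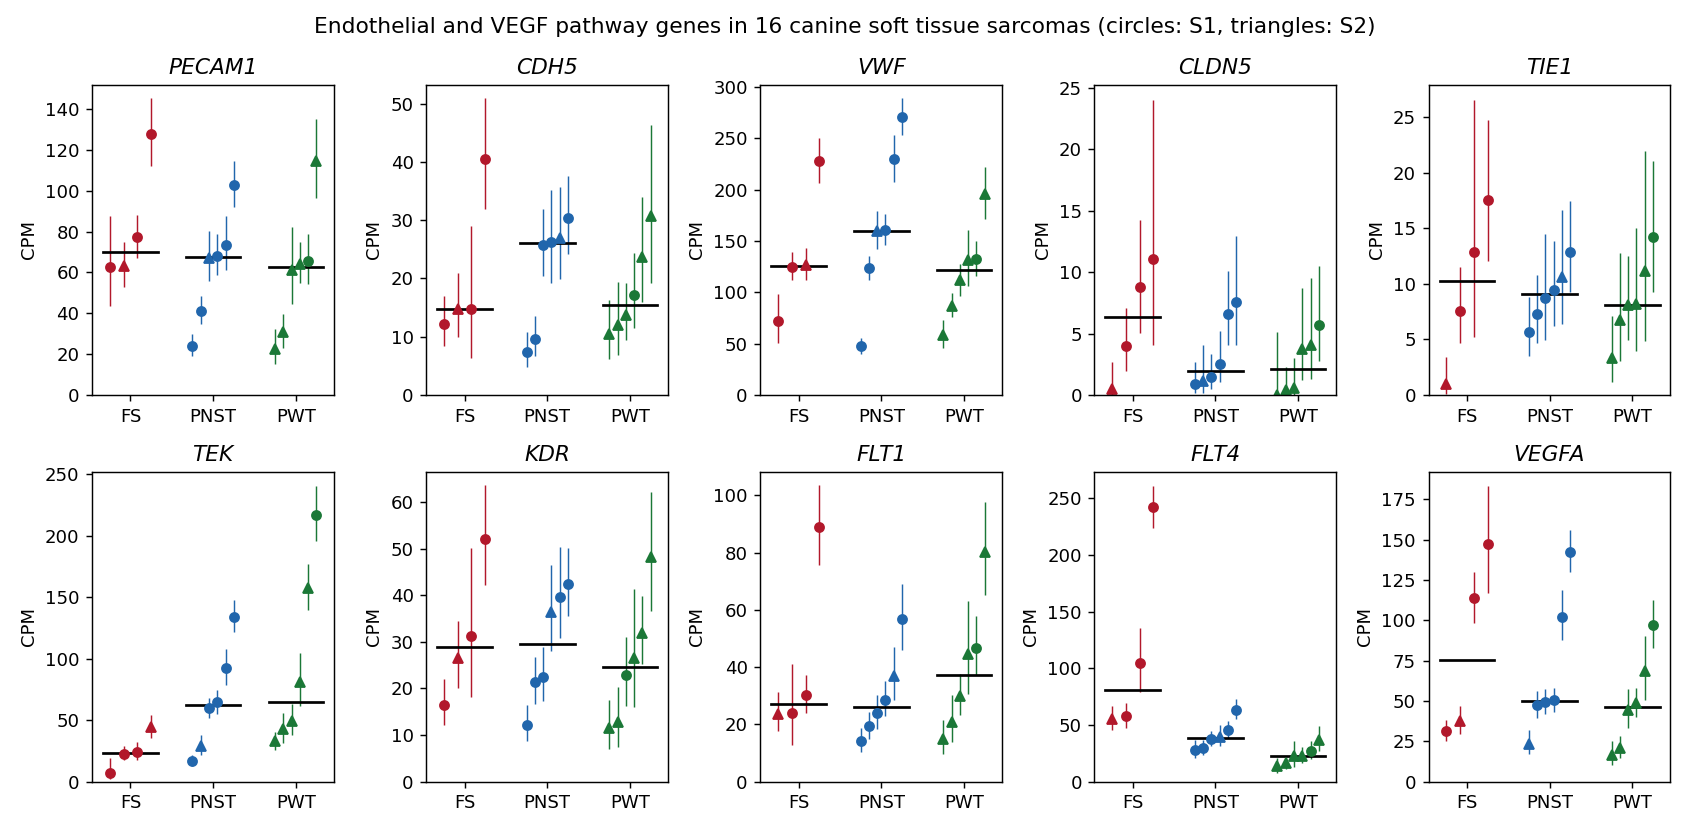
Level of each of the 10 members in each of the 16 tumors (CPM), ordered within each type, with 95% counting intervals, bars for medians, circles for S1 and triangles for S2. FLT4 is at 55.6 to 242 CPM in FS and at 13.5 to 36.8 CPM in PWT.

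FS were compared with PNST and PWT pooled to ask which genes set fibrosarcomas apart. A gene was called when its edgeR adjusted p was under 0.05 and its log2 fold change was above 1 in size. By this rule 1 of 10 members was called, beside 9.46% of all 15408 tested genes, so the members' count was close to the background. The called member was FLT4, and 2 members had an unadjusted p under 0.05, beside 3915 of the 15408 genes. DESeq2 called 2 members, FLT4 and TEK, beside 2090 genes. Across all genes 890 were called higher and 567 lower in FS. The members' median log2 fold change was 0.25 against 0.00 for all tested genes, and their median size of change was 0.37 against 0.45. No member separated FS from the other tumors completely: 0 of 10 had every FS above or below every other tumor, beside 3.2% of tested genes.

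PNST were compared in the same way with FS and PWT pooled. edgeR called 0 of 10 members, beside 0% of tested genes (0 of 15408). At an unadjusted p under 0.05 there were 0 members and 2415 genes, and DESeq2 called 0 members and 291 genes. The members' median log2 fold change was -0.01 against -0.06 for all tested genes. The complete separation of the types was seen for 0 of 10 members, beside 0.286% of tested genes. Members' log2 fold changes in PNST ran from -0.55 for FLT4 to 0.38 for VWF.

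PWT were compared with FS and PNST pooled, the comparison that asks what marks tumors of the vessel wall. edgeR called 0 of 10 members, beside 2.12% of tested genes. At an unadjusted p under 0.05 there was 1 member, FLT4, among 3449 genes, and DESeq2 called 1 member, again FLT4, beside 875 genes. The members' median log2 fold change was -0.25 against -0.08 for all tested genes. The complete separation of the types was seen for 0 of 10 members, beside 0.746% of tested genes.

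The types were then set against each other in pairs, comparisons that share tumors with those above. FLT4 was the 1 member called in FS against PNST, beside 7.13% of tested genes, and the 1 member called in FS against PWT, beside 11.2% of tested genes. PNST against PWT gave 0 members called by edgeR, beside 0.169% of tested genes. In that pair 1 member, FLT4, had an unadjusted p under 0.05 among 3013 genes, and DESeq2 called 0 members and 517 genes. The plot of fold changes gives every member in the comparisons of each type with both others.

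**Figure D2:**
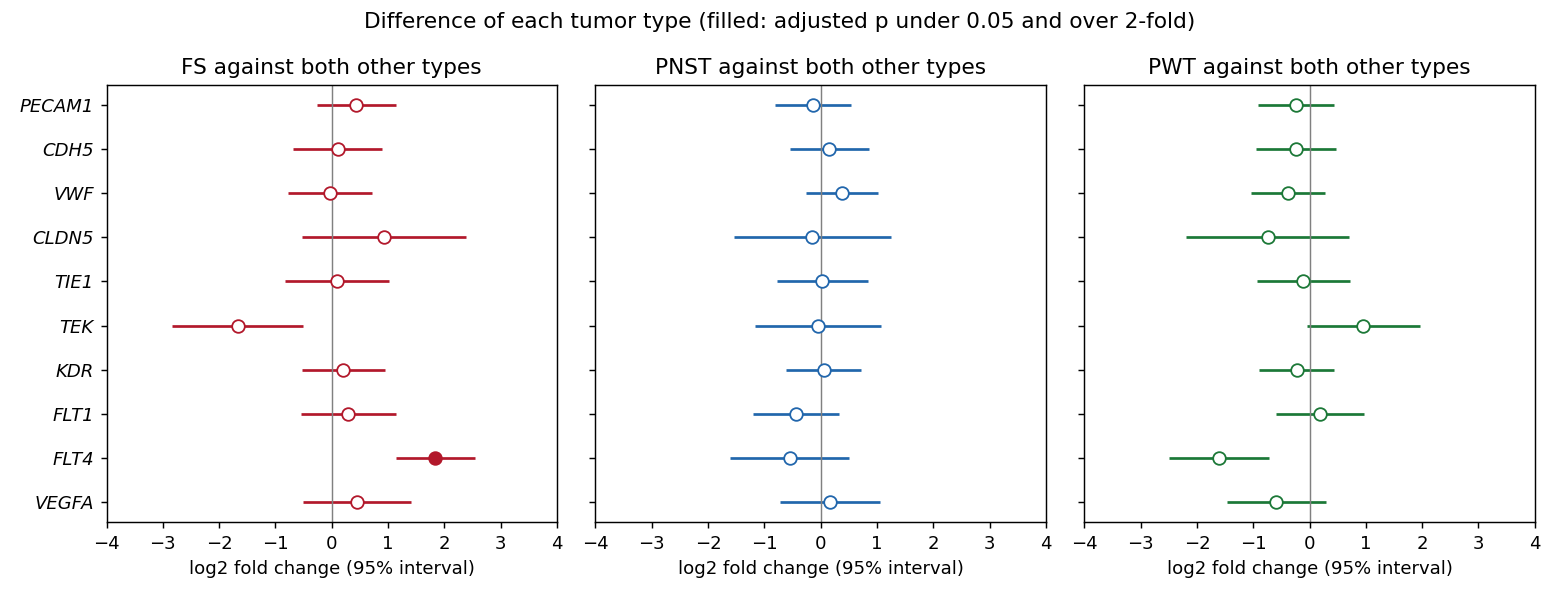
Log2 fold change of each member in FS, PNST and PWT, each against both other types, with 95% intervals. The filled point is FLT4 in FS at 1.84, and the open points did not pass the test.

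The endothelial identity and junction genes gave no difference between the types that passed the test. PECAM1, an adhesion molecule at endothelial cell contacts that platelets and leukocytes also carry, stood in the FS at 77.1 CPM in S1-2, 128 CPM in S1-11, 62.6 CPM in S1-12 and 63.2 CPM in S2-6. It had a lowest, median and highest of 24.1, 67.7 and 103 CPM in PNST and of 22.4, 62.8 and 114 CPM in PWT. The 3 ranges overlapped, with the highest tumor an FS and the lowest a PWT. Without TMM, the factors that scale the library sizes, the highest was the PWT S2-9 at 112 CPM. In bulk RNA fewer endothelial cells and less RNA per cell cannot be told apart.

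CDH5 encodes the cadherin of endothelial junctions, and it ranged from 12.2 to 40.6 CPM in FS, from 7.39 to 30.4 CPM in PNST and from 10.4 to 30.7 CPM in PWT. VWF, the clotting protein that endothelial cells and megakaryocytes store, ranged from 71.8 to 228 CPM in FS, from 47.4 to 271 CPM in PNST and from 58.4 to 195 CPM in PWT. CLDN5, a claudin of endothelial tight junctions, was thinly covered at 0 to 21 counts per tumor. Its single 0 was in the PWT S2-4, where the limit of 3 counts that a count of 0 allows is 4.18 CPM and the plotted two-sided 95% interval reaches 5.14 CPM. In FS against the other tumors the log2 fold changes were 0.44 for PECAM1, 0.10 for CDH5, -0.04 for VWF and 0.93 for CLDN5. That of CLDN5 was 0.55 without S1-11 and 1.36 without S2-6. None of these 4 had an adjusted p under 0.05 by edgeR in any of the 6 comparisons.

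TIE1, the partner receptor of TEK, was at 0.950 to 17.5 CPM in FS, 5.69 to 12.9 CPM in PNST and 3.28 to 14.2 CPM in PWT. The lowest and the highest of all 16 tumors were both FS, S2-6 and S1-11. TEK, the receptor of angiopoietins, was at 22.6 CPM in S1-2, 24.1 CPM in S1-11, 7.37 CPM in S1-12 and 44.2 CPM in S2-6 among the FS. In PNST its lowest, median and highest were 16.9, 62.1 and 134 CPM, and in PWT 32.7, 65.1 and 217 CPM. The highest TEK values were in the PWT S1-7 and S2-8, the FS values were mostly low, and 4 of 12 other tumors lay below the highest FS. TEK means were 24.6 ± 15.1 CPM in FS (SD, n = 4), 66.1 ± 42.7 CPM in PNST (SD, n = 6) and 96.7 ± 74.4 CPM in PWT (SD, n = 6). The log2 fold change of TEK in FS against the others was -1.67 with a standard error of 0.59 and an edgeR adjusted p of 0.0775, with 4 of 4 FS below the median of the other tumors (62.1 CPM). This missed the threshold, whereas DESeq2 gave -1.67 with an adjusted p of 0.0261 and called it. Over all alternatives the adjusted p of TEK ranged from 0.0261 to 0.732. The log2 fold change was -0.52 with tumors grouped by histology, which gave that highest p, and -2.34 among the S1 tumors alone.

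KDR, the main signaling receptor of VEGFA, ranged from 16.5 to 52.1 CPM in FS, from 12.1 to 42.4 CPM in PNST and from 11.5 to 48.2 CPM in PWT. FLT1, which binds VEGFA tightly and can limit its signal, ranged from 23.8 to 88.8 CPM in FS, from 14.2 to 56.7 CPM in PNST and from 14.8 to 80.1 CPM in PWT. Their log2 fold changes in FS were 0.21 and 0.29, and neither passed the test. The FS S1-11 held the highest value of all 16 tumors for PECAM1, CDH5, TIE1, KDR and FLT1. Without TMM it kept the highest value for CDH5 (31.8 CPM) but not for the others. PECAM1 was then at 100 CPM in S1-11 and 112 CPM in the PWT S2-9. In the same tumors KDR was at 40.9 and 47.1 CPM and FLT1 at 69.7 and 78.2 CPM. TIE1 was at 13.76 CPM in S1-11 and 13.79 CPM in S1-12. Without S1-11 the log2 fold changes in FS were 0.15 for PECAM1, -0.48 for CDH5, -0.46 for TIE1, -0.17 for KDR and -0.40 for FLT1.

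FLT4 was at 242 CPM in S1-2, 57.6 CPM in S1-11, 105 CPM in S1-12 and 55.6 CPM in S2-6 among the FS. Its lowest, median and highest were 28.0, 38.8 and 63.7 CPM in PNST and 13.5, 22.4 and 36.8 CPM in PWT. All 4 FS lay above all 6 PWT, and of the 12 other tumors 1, the PNST S1-9, lay above the lowest FS. FLT4 means were 115 ± 87.7 CPM in FS (SD, n = 4), 40.8 ± 13.0 CPM in PNST (SD, n = 6) and 23.0 ± 8.28 CPM in PWT (SD, n = 6).

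FLT4 rose in FS against the other types by a log2 fold change of 1.84 (standard error 0.36, 95% interval 1.14 to 2.55, 3.59-fold), with an edgeR adjusted p of 0.00325 and 4 of 4 FS above the median of the others. Against PNST alone the log2 fold change was 1.5 with an edgeR adjusted p of 0.0230, with 4 of 4 FS above the PNST median. Against PWT alone it was 2.33 with an edgeR adjusted p of 0.00192, with 4 of 4 FS above every PWT. The order of the levels was FS, then PNST, then PWT, but the neighbors PNST and PWT gave a log2 fold change of 0.83 with an edgeR adjusted p of 0.214, short of the threshold, with 5 of 6 PWT below the lowest PNST. PWT against the other types gave -1.61 with an edgeR adjusted p of 0.0610, and DESeq2 gave -1.64 with an adjusted p of 0.00985. With the prefix as a term it was -1.26 with an edgeR adjusted p of 0.447, and among the S2 tumors alone -1.11 with an edgeR adjusted p of 0.464, with 6 of 6 PWT below the median of the other types over all tumors.

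The FS S1-2 had the highest FLT4 of all 16 tumors. Its 3 sequencing runs gave 255, 253 and 221 CPM. Without S1-2 the log2 fold change was 1.16 with an edgeR adjusted p of 0.0462, and leaving out any tumor in turn gave 1.16 to 2.07. Among the S1 tumors alone it was 1.82 with an edgeR adjusted p of 0.0309, and with the prefix as a term 1.63 with an edgeR adjusted p of 0.00562. Among the S2 tumors the single FS lay above all 6 others. Without the reassigned S1-10 and S2-8 it was 1.79 with an edgeR adjusted p of 0.0113. With tumors grouped by histology, so that S2-8 counts as an FS, it was 1.55 with an edgeR adjusted p of 0.0608 and was not called. Over all alternatives the adjusted p ranged from 0.000218 to 0.0608. The call against PNST alone was lost without S1-2, S1-5 or S1-10, among the S1 tumors alone, without S1-10 and S2-8 together, and by histology. The call against PWT alone was lost among the S2 tumors and by histology.

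**Figure D3:**
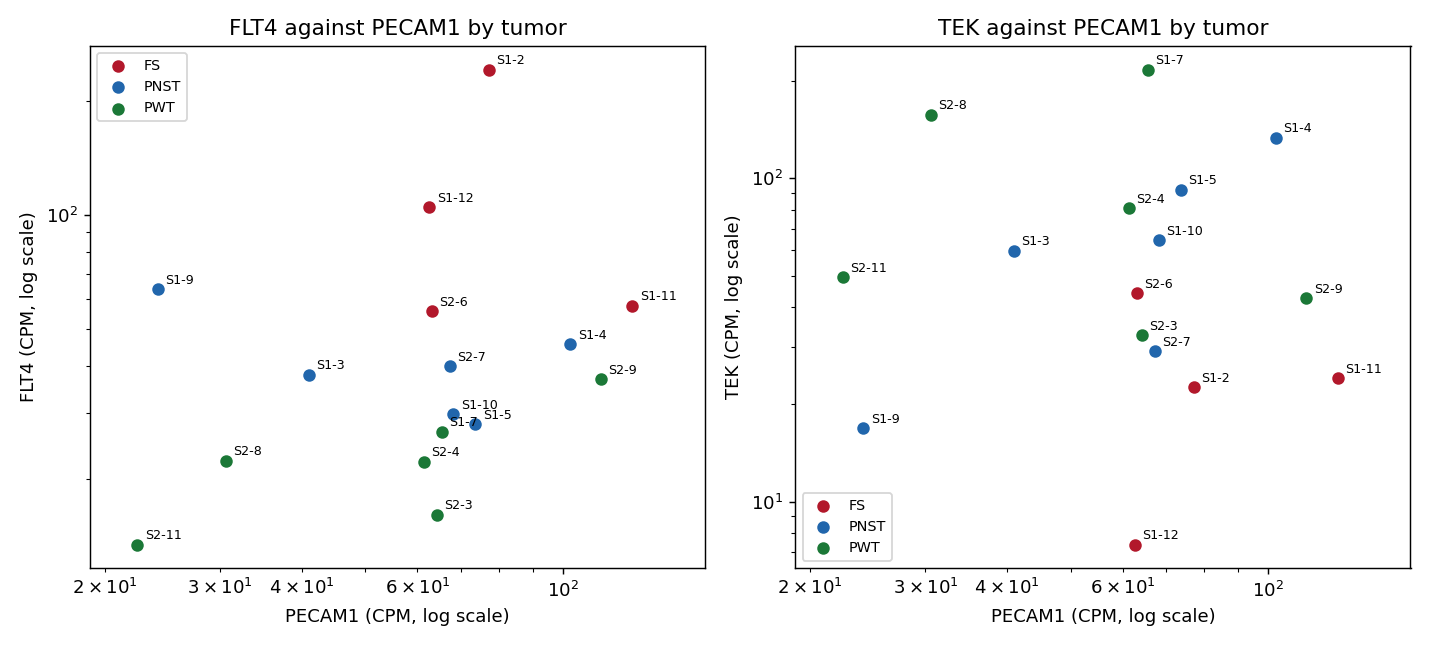
FLT4 and TEK against PECAM1 in each of the 16 tumors (CPM, log scales), with colors for the types. The FS lie at 55.6 to 242 CPM for FLT4 and at 7.37 to 44.2 CPM for TEK, where they overlap with other tumors, at PECAM1 levels of 62.6 to 128 CPM.

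The receptors were also set against another endothelial gene of the same tumor. FLT4 counts per KDR count had a lowest, median and highest of 1.11, 2.72 and 14.7 in FS, 0.706, 1.21 and 5.28 in PNST and 0.506, 0.950 and 1.95 in PWT. TEK counts per PECAM1 count had a lowest, median and highest of 0.118, 0.241 and 0.699 in FS, 0.433, 1.10 and 1.46 in PNST and 0.371, 1.76 and 5.14 in PWT. The FS medians lay above the others for the first ratio and below them for the second, with overlap between the types in both.

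VEGFA, the ligand, was at 31.2, 114, 147 and 37.5 CPM in the FS S1-2, S1-11, S1-12 and S2-6. Its lowest, median and highest were 23.5, 49.8 and 142 CPM in PNST and 16.5, 46.3 and 96.8 CPM in PWT. The ranges of the 3 types overlapped, and FS held both low and high tumors. The log2 fold change in FS was 0.45 with an edgeR adjusted p of 0.617, short of the threshold, with 2 of 4 FS above the median of the others. Without S1-12 it was 0.030, and without S1-2 it was 0.73.

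The members were also compared with each other across the 16 tumors, in 45 pairs adjusted together, a family added after the data were seen. By Pearson's r 11 pairs had an adjusted permutation p under 0.05, and by Spearman's rho 14 pairs. PECAM1, CDH5, VWF, KDR and FLT1, a set chosen after the values were seen, moved together: all 10 of their pairs passed by both measures. TIE1 also passed by rho with CDH5 (0.75), FLT1 (0.68) and KDR (0.64), and with CLDN5 by r (0.58). The r of the 10 pairs among PECAM1, CDH5, VWF, KDR and FLT1 ran from 0.66 to 0.88 and their rho from 0.65 to 0.82, with permutation p for r from 2e-05 to 0.00532. Without the 2 tumors farthest from the median their r ran from 0.535 to 0.812, within S1 from 0.683 to 0.826 and within S2 from 0.665 to 0.961. Among the 9 S1 tumors alone 0 of all 45 pairs passed. The heat map of rank correlations shows this block.

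Over all 16 tumors FLT4, TEK and VEGFA did not pass with any gene of that set. FLT4 with these 5 genes gave r from -0.08 to 0.30, TEK from -0.08 to 0.43 and VEGFA from 0.01 to 0.32, and 0 of 15 pairs passed by either measure. The r within each prefix follow, and their difference between the prefixes was not tested. FLT4 gave r from -0.36 to 0.033 within S1 and from 0.31 to 0.78 within S2. VEGFA gave r from -0.39 to 0.18 within S1 and from 0.43 to 0.71 within S2, and TEK from 0.20 to 0.61 within S1 and from -0.68 to -0.088 within S2. FLT4 and TEK gave r of -0.57 (permutation p 0.0207, adjusted 0.0778) and rho of -0.64 (permutation p 0.00856, adjusted 0.0283). The r of FLT4 and TEK was -0.72 within S1 and -0.23 within S2, and -0.18 within the types.

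**Figure D4:**
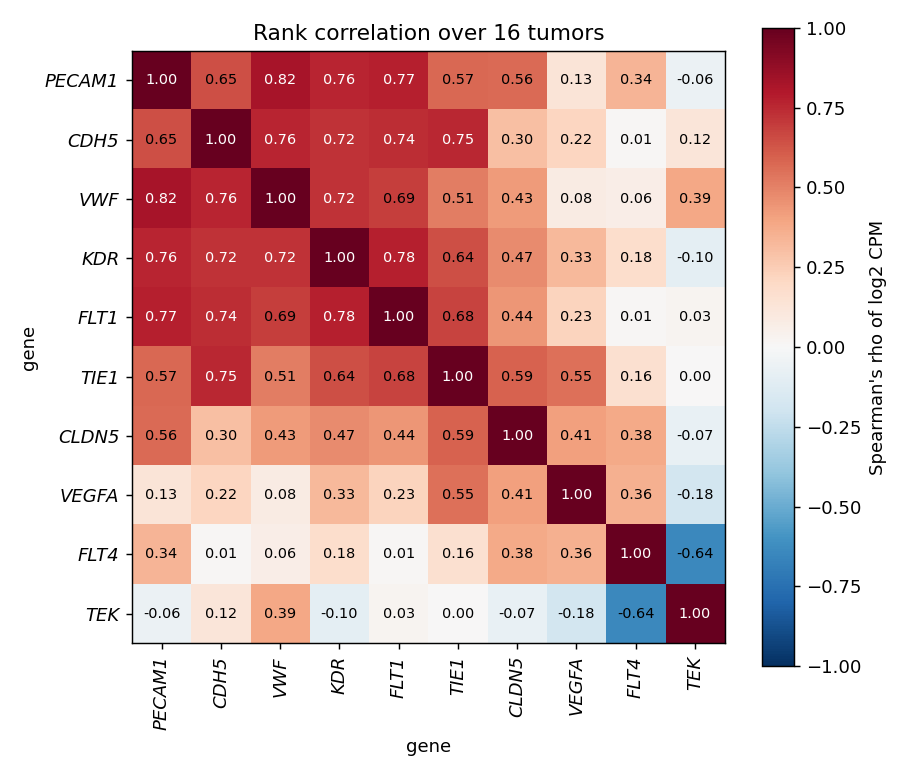
Spearman's rho of log2 CPM between the 10 members over the 16 tumors, from -1 (blue) to 1 (red). PECAM1, CDH5, VWF, KDR and FLT1 reach 0.65 to 0.82 with each other, and FLT4 with TEK is at -0.64.

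VEGFA was then set against each of the other 9 members, with p adjusted over 9. By r and by rho 0 of 9 passed. The r ran from -0.26 for TEK to 0.44 for TIE1, whose permutation p was 0.0814 and adjusted p 0.448. For TIE1 the rho was 0.55 with a permutation p of 0.0289 and an adjusted p of 0.261. Without the 2 tumors farthest from the VEGFA median, S1-12 and S2-11, the r of TIE1 was 0.43. The r of VEGFA with PECAM1 was -0.53 within the 6 PNST and 0.75 within the 6 PWT, and with KDR -0.50 and 0.63. With PECAM1 it was -0.23 within S1 (9 tumors) and 0.71 within S2 (7 tumors). These r within groups and their differences were not tested. Among the PNST, S1-9 held both the lowest PECAM1 (24.1 CPM) and the highest VEGFA (142 CPM).

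The genes most like the 6 endothelial markers PECAM1, CDH5, VWF, TIE1, TEK and CLDN5 by mean rho over the 16 tumors were JUN, LOC102155586, RBFOX1, CD300LG, PPP2R2C, ADIPOQ, THY1, NPR1, ESAM and TINAGL1, at 0.568 to 0.606. The 95th percentile over 15398 genes was 0.302. The listed genes were chosen as the highest, so their place above this percentile was fixed by the choice. TEK itself had a mean rho of 0.076 with the other 5 markers. In their lowest tumors RBFOX1 was at 0.24 CPM and CD300LG, PPP2R2C and ADIPOQ at 0.15 CPM, pseudocount included. For VEGFA the nearest were LOC119873308 and ZBTB7A at 0.868. DIPK1B, LOC106559080, FAM43A, LOC111097974, CHRNE, DOLPP1, TESK1 and ZBTB4 followed, from 0.850 for DIPK1B down to 0.812 for ZBTB4. All were chosen in the same way, so their place above the 95th percentile of 0.509 was also fixed by the choice.

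The other genes of these pathways were read from fixed lists, and the plot of these lists in FS shows them. Counts called in FS in each list below stand beside 890 higher and 567 lower of 15408 tested genes, 9.46% in all. A single call in a short list is therefore near the background. Among 6 other ligands and co-receptors 0 were called in FS, with a median log2 fold change of -0.68. NRP2, a co-receptor of VEGFC and VEGFA, had an edgeR adjusted p of 0.0327 at a log2 fold change of -0.97, short of the fold threshold. It was called in 5 of 25 alternatives, with adjusted p of 0.0037 to 0.445 over all of them. In NRP2 4 of 4 FS lay below the median of the others. NRP1, the co-receptor of VEGFA, was at -1.13 with an edgeR adjusted p of 0.0783, with 4 of 4 FS below that median. The FLT4 ligands VEGFC and VEGFD, named after their values were seen, were at -0.37 and -1.99 and were not called. With each tumor left out in turn VEGFC ran from -0.89 to -0.070 and VEGFD from -3.06 to -1.63. Among 5 angiopoietin and TIE system genes 1 rose in FS, ANGPT4, a TEK ligand, by 1.67 with an edgeR adjusted p of 0.0499, with 4 of 4 FS above the median of the others. The call of ANGPT4 was kept in 6 of 25 alternatives, with adjusted p of 0.0257 to 0.359, and without S1-11 it was at 0.98.

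Among 25 other pan-endothelial genes tested, 1 fell in FS, 0 rose, and the median log2 fold change was -0.06. CALCRL, a receptor for adrenomedullin and calcitonin gene-related peptide, was at 25.1, 24.1, 12.9 and 47.5 CPM in the FS, at a lowest, median and highest of 27.0, 94.0 and 126 CPM in PNST and of 124, 254 and 358 CPM in PWT. In CALCRL 3 of 4 FS lay below all other tumors, and 5 of 6 PWT lay above all others. CALCRL differed in FS by a log2 fold change of -2.60 with an edgeR adjusted p of 0.00775, and rose in PWT by 2.01 with an edgeR adjusted p of 0.0219, and these calls were kept in 23 and 20 of 25 alternatives. The PWT call of CALCRL was lost with the prefix as a term, among the S2 tumors alone, by histology, and without S2-4 or S2-11, with adjusted p up to 0.442. Its log2 fold change in PWT was 1.56 to 2.18 over all alternatives. As 5 of 6 PWT carry the prefix S2, type and prefix are largely tied in that comparison. The FS call of CALCRL was lost among the S1 tumors alone and by histology. RAMP2, its partner, named after its values were seen, was at 0.84 in FS and was not called. Without S1-11 RAMP2 was at 0.28.

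Among 8 arterial and tip cell genes and 3 lymphatic genes that were tested, 0 were called in FS. SEMA3G, a semaphorin of arterial endothelium, was at 2.09 and was not called. Its value rested on S2-6, at 510 CPM, and without S2-6 the log2 fold change of SEMA3G was -0.58. GJA5, an arterial connexin, was at 1.49 and was not called, and without S1-11 it was at 0.43. Of the lymphatic genes, PROX1, the lymphatic identity factor, was at 0.93 in FS, but at -0.084 without S1-11. PDPN was at -0.59, and LYVE1, named after its values were seen, ranged from 5.52 to 68.0 CPM in FS, 15.1 to 73.9 CPM in PNST and 12.6 to 131 CPM in PWT. CCL21, a chemokine of lymphatic vessels, did not pass the count filter, at 1 to 24 counts per tumor, and is named after its values were seen. It was at 3.59 CPM in S1-2, 8.77 CPM in S1-11, 11.0 CPM in S1-12 and 3.80 CPM in S2-6, at a lowest, median and highest of 0.584, 2.02 and 7.54 CPM in PNST and of 0.547, 1.80 and 3.23 CPM in PWT. All 4 FS lay above all 6 PWT in CCL21, but narrowly for so few counts, at 3.59 CPM in the lowest FS and 3.23 CPM in the highest PWT. FS and PNST overlapped. The difference was not tested, and the share of all genes with this order was not counted. Of 4 venous genes NR2F2 fell in FS by a log2 fold change of -1.34, edgeR adjusted p 0.0355, with 4 of 4 FS below the median of the others. The call was kept in 18 of 25 alternatives. VCAM1, a leukocyte adhesion molecule of activated endothelium, was at -2.98 and was not called, and by histology it was at 0.77. It was called in 5 of 25 alternatives, and in FS against PWT alone it was called at -3.64. Of 6 angiogenesis inhibitors 3 rose in FS, beside 890 of 15408 tested genes called higher. They were COL18A1 by 1.47, VASH1 by 1.15 and SEMA3F by 1.16, with edgeR adjusted p of 0.0230, 0.0210 and 0.0347. For each, 4 of 4 FS lay above the median of the others. These calls were kept in 20, 21 and 16 of 25 alternatives, and all 3 were lost without S1-11, at log2 fold changes of 1.17, 1.14 and 0.76. THBS2, a thrombospondin, was at 1.95 and was not called, and in FS against PWT alone it was called at 3.3. Without S1-2 the log2 fold change of THBS2 in FS was 1.29. VASH1 was higher in all 4 FS, at 71.7 to 78.4 CPM, than in any other tumor (at most 65.5 CPM). ADAMTS1, an inhibitor of the same list named after its values were seen, was not called. It ranged from 105 to 344 CPM in FS, 211 to 624 CPM in PNST and 204 to 496 CPM in PWT.

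Among 10 hypoxia-regulated genes, at a median log2 fold change of 0.38 in FS, 1 rose, SLC2A1, a glucose transporter, beside 890 of 15408 tested genes. It was at 18.4 to 41.7 CPM in the 4 FS and at most 11.7 CPM in the others, with no overlap. Its log2 fold change was 2.50 (standard error 0.37) with an edgeR adjusted p of 0.000525, and it was called under every alternative that was run. VEGFA itself, another hypoxia-regulated gene, did not pass. ADM and NDRG1 of this list, named after their values were seen, were not called in FS. ADM ranged from 3.68 to 12.4 CPM in FS, 4.48 to 45.3 CPM in PNST and 12.5 to 45.2 CPM in PWT. NDRG1 ranged from 55.9 to 173 CPM in FS, 123 to 409 CPM in PNST and 114 to 271 CPM in PWT. Of 10 transcription factors 2 rose in FS, TAL1 by 2.08 (edgeR adjusted p 0.0181, higher in 3 of 4 FS than the median of the others) and HIF1A by 1.35 (edgeR adjusted p 0.0493, higher in 4 of 4 FS than the median of the others). S1-11 held TAL1 at 107 CPM, and without it the log2 fold change of TAL1 was 0.54. The call of HIF1A was kept in 8 of 25 alternatives.

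Genes of other cell types were read beside the result, again against 890 of 15408 tested genes called higher in FS and 567 called lower. Of 10 pericyte and smooth muscle genes 2 rose in FS, ACTA2, a contractile protein, by 2.40 and MCAM, a mural cell adhesion molecule, by 1.35, each higher in 3 of 4 FS than the median of the others, and the median over the list was 1.35. These calls were kept in 22 and 14 of 25 alternatives. The summed level of this list was 1294 CPM in S1-2, 1892 CPM in S1-11, 862 CPM in S1-12 and 664 CPM in S2-6, against 404 to 911 CPM in PNST and 417 to 773 CPM in PWT. Of 5 fibroblast genes 2 rose in FS, COL1A1 by 1.81 and LUM by 2.28, with calls kept in 20 and 8 of 25 alternatives, and the median over the list was 0.98. The other 3 were not called in FS, with COL1A2 at 0.98 (called in FS against PWT alone, at 1.5), PDGFRA at -0.89 and DCN, named after its values were seen, at -1.38. In DCN 3 of 4 FS lay below all other tumors, and PDGFRA was called lower in FS against PNST alone at -1.18. Without S1-11 the log2 fold changes in FS were 1.27 for ACTA2, 0.66 for MCAM, 0.83 for COL1A1 and 1.55 for LUM, and none of these 4 was called. COL1A2 was then at 0.51. The part of these cell type genes in the FLT4 result was not tested. In PWT against the other types CALCRL and COL1A1 were the listed genes called, and COL1A1 was at -2.03 in that comparison, a call kept in 8 of 25 alternatives with adjusted p up to 0.575. Grouped by histology, SLC2A1 was the 1 listed gene among those above whose call in FS or PWT was kept.

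The 6 endothelial genes together gave 180 to 446 CPM in FS, 106 to 553 CPM in PNST and 153 to 452 CPM in PWT. VWF held the most of these counts except in the PWT S1-7 and S2-8, where TEK did. In FS against both other types edgeR called 0 of 2 platelet genes, 0 of 5 leukocyte genes, 0 of 4 adipocyte genes, 0 of 5 keratinocyte genes and 0 of 2 Schwann cell genes, and 0 of 5 skeletal muscle genes passed the count filter. In FS against PWT alone 1 of the 4 adipocyte genes was called, LPL, a lipase, at a log2 fold change of -2.75. Leukocyte genes summed to 582 CPM and keratinocyte genes to 1169 CPM in S1-2, the FS with the highest FLT4. Keratinocyte genes also summed to 1080 CPM in the PNST S1-5, 864 CPM in the PWT S2-3, 791 CPM in the PNST S1-4 and 700 CPM in the FS S1-12. In these tumors FLT4 was at 28.0, 16.2, 45.6 and 105 CPM. Skeletal muscle genes summed to 747 CPM in S1-11.

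**Figure D5:**
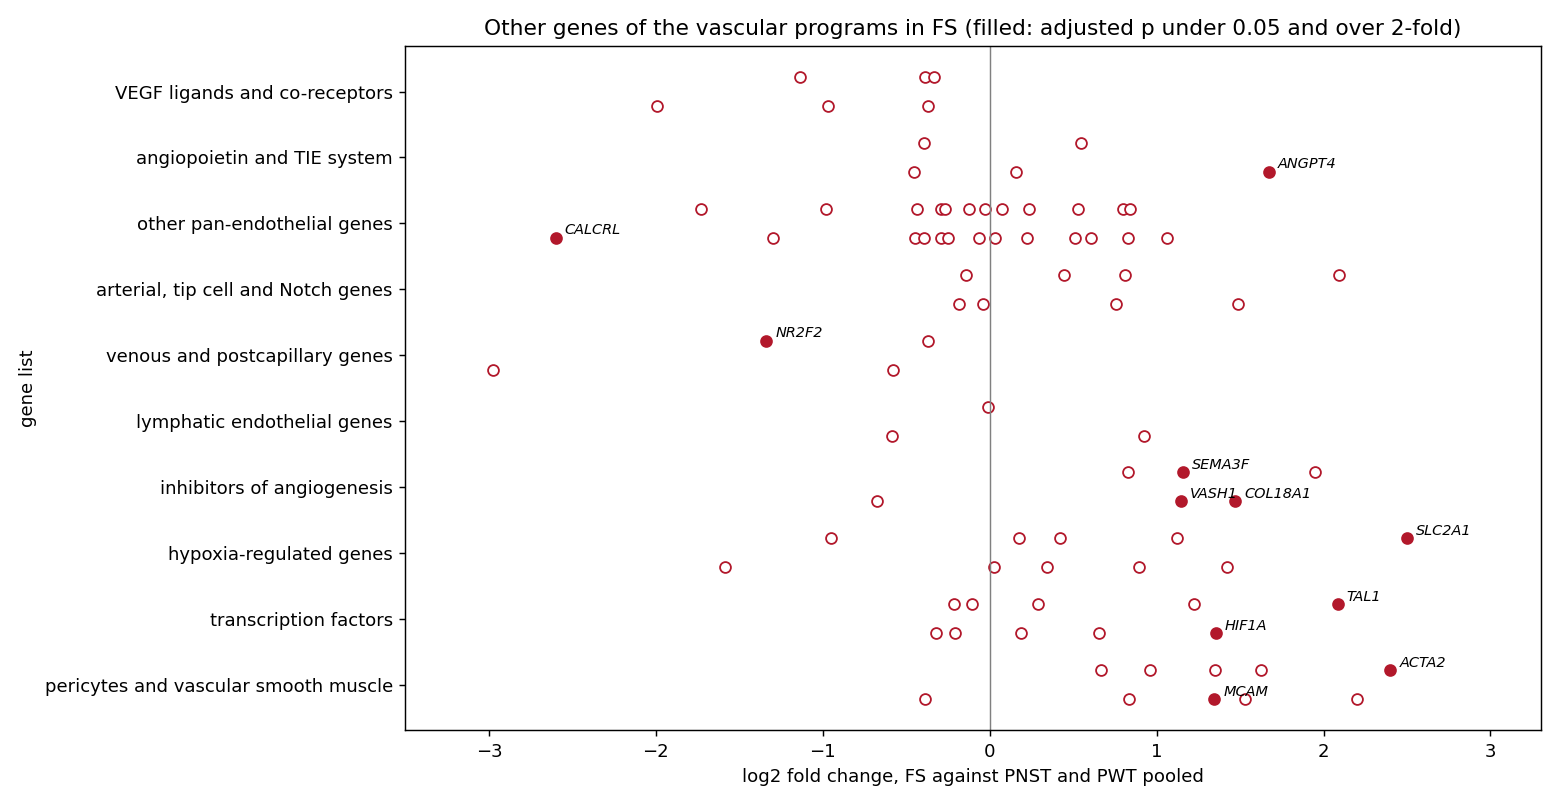
Log2 fold change in FS against both other types of the genes in the fixed lists, with called genes named. SLC2A1 is at 2.50 and CALCRL at -2.60.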

How the data were processed

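The authors deposited read counts per gene and sequencing run. Per their methods, RNA from the sections was depleted of ribosomal RNA (RiboMinus), made into libraries (Ion Total RNA-Seq Kit v2), sequenced on the Ion Proton, aligned with STAR to ROS-canfam-01 and counted with htseq-count, whose version is not given. Runs of a tumor were summed, 3 for every S1 tumor and 1 for every S2 tumor, so the number of runs is tied to the prefix. Reads in no gene made up 41.8 to 66.7% of the listed reads. The strand setting is not stated, so antisense or overlapping genes cannot be told apart. A gene was tested when 4 or more tumors held 10 counts or more of it. CPM are counts over the TMM-scaled total of tested genes. Types were compared with the quasi-likelihood test of edgeR 4.0.16 in R 4.3.3, with Benjamini-Hochberg adjustment over all tested genes, and a standard error was the size of the log2 fold change over the square root of F. DESeq2 1.42.0 was an alternative. The alternatives were other normalization factors, no filter, adjusted p alone, the prefix as a term, each prefix alone, histology groups, leaving out S1-10 and S2-8, summing S1-4 and S1-5, and leaving out each tumor. Intervals of counts are 95% and, like the limit of 3 counts for a count of 0, cover counting error only. Correlations used log2 CPM with a pseudocount of 0.5 counts and two-sided permutation p from 1e+05 permutations, adjusted over 9 relations of VEGFA or over 45 pairs. Genes named outside the members were those called in a fixed list, or the 2 with the smallest p in a list with none, and the 10 nearest by rho. VEGFC, VEGFD, RAMP2, LYVE1, CCL21, DCN, ADAMTS1, ADM and NDRG1 fall outside this rule and were chosen after their values were seen. Members and lists were chosen with earlier results of these data known. The scripts were tested on simulated data. JAM2, GJA4 and PF4 were not in the table and were not analysed here.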

Additional observations from a re-analysis of the deposited data

Results flagged for a closer look

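In each group of values the distance of the highest or lowest tumor to its nearest neighbor was set against the range of the group, and 2 of 30 groups stood out, both through the FS S1-11. CDH5 in S1-11 was 40.6 CPM beside 14.7 CPM in the next FS, a gap of 0.910 of the range. FLT1 in S1-11 was 88.8 CPM beside 30.1 CPM in the next FS, a gap of 0.902 of the range. Without TMM CDH5 was 31.8 CPM in S1-11 beside 18.0 CPM in S2-6, a smaller gap. FLT1 was then 69.7 CPM beside 30.2 CPM in S1-2. Chance would flag about 1 in 20 groups if values were normally distributed and groups independent. CDH5 and FLT1 moved together over the 16 tumors (r 0.75), so these flags are not independent. Why S1-11 stood apart was not tested.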

How the results depend on the processing

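Results were computed again under the alternatives that applied to them: mean CPM without TMM only, each r of VEGFA under 4 alternatives, and fits within 1 prefix in S1 for FS, PNST and FS against PNST and in S2 for PWT and the pairs with PWT. Over 25 alternatives each, the 30 log2 fold changes of the members were on the same side of the threshold and of 0 in 679 of 750 computations, 1 lost its call, 4 gained a call and 66 changed sign. No member's log2 fold change that changed sign had passed the test, and the cause was not tested. Of 725 computations for other named genes 582 kept call and sign, 124 lost the call, 15 gained it and 4 changed sign. All 30 mean CPM values moved by less than the SD between tumors of the type when TMM was left out. This margin is wide and says little of single tumors. PECAM1 in S1-11, for instance, was at 128 CPM with TMM and 100 CPM without it. Of 36 Pearson r of VEGFA 30 kept their sign.

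With upper quartile factors PNST against PWT gave 12 genes called in place of 26. Without the count filter PNST against the other types gave 2 genes called, PWT against the other types 128, and FS against PWT 2 members, while the log2 fold change of TEK in PNST was 0.053. DESeq2 called 2 members in FS against the other types and 2 in FS against PWT (FLT4 and TEK), beside 2090 and 2453 genes, 1 in PWT against the other types (FLT4), and 291 genes in PNST, 875 in PWT, 1774 in FS against PNST and 517 in PNST against PWT.

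With the prefix as a term 0 genes were called in PWT against the other types, 895 in FS against PWT and 0 in PNST against PWT. In that fit TIE1 had log2 fold changes of -0.18 (FS), -0.16 (PNST) and 0.41 (PWT), and those of VEGFA were -0.41 in PNST and 0.29 in PWT, and that of CLDN5 0.63 in PWT. Among the S1 tumors alone 827 genes were called in FS and 502 genes with 0 members in FS against PNST. There SEMA3G was at -0.97 in FS, and in PNST CDH5 was at -0.12, TIE1 at -0.57, TEK at 0.091, KDR at -0.16 and VEGFA at -0.31. Among the S2 tumors alone 1 gene was called in PWT, 83 genes with 0 members in FS against PWT, and 7 genes in PNST against PWT. In PWT TIE1 was then at 0.35, CLDN5 at 1.08 and VEGFA at 0.36. Within a prefix a type with 1 tumor is assumed to vary like the others.

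With tumors grouped by histology 205 genes and 0 members were called in FS, 0 genes in PWT, 0 genes and 0 members in FS against PNST, 5 genes and 0 members in FS against PWT, and 0 genes in PNST against PWT. The log2 fold changes in FS were then -0.11 for CDH5, -0.19 for TIE1, -0.067 for KDR and 0.77 for VCAM1, and in PWT 0.17 for CDH5 and 0.16 for TIE1. The log2 fold change of CDH5, PNST against FS and PWT pooled, was -0.069. Without S1-10 and S2-8 145 genes were called in PWT, 634 genes and 0 members in FS against PNST and 0 genes in PNST against PWT. CDH5 was then at -0.059, TIE1 at -0.085 and TEK at 0.19 in PNST, and TIE1 at 0.068 in PWT. With S1-4 and S1-5 summed 0 genes were called in PNST against PWT and VWF was at 0.061 in FS. The log2 fold change of TIE1, PNST against FS and PWT pooled, was then -0.0093, and the log2 fold change of KDR, PNST against FS and PWT pooled, was -0.068.

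The Pearson r of VEGFA was -0.23 with PECAM1, -0.39 with VWF and -0.19 with FLT4 among the S1 tumors. It was -0.034 with VWF with S1-4 and S1-5 combined, and without the 2 tumors farthest from the median -0.090 with VWF and -0.058 with FLT4. Of the 45 pairs of members 11 passed over all tumors and 0 among the S1 tumors alone. The alternatives for these pairs were chosen after seeing the data.

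Leaving out each tumor in turn gave 940 to 1582 genes and 1 to 2 members called in FS, 0 to 3 genes in PNST, 11 to 488 genes and 0 to 1 members in PWT, 650 to 1181 genes and 0 to 1 members in FS against PNST, 1103 to 1927 genes and 1 to 2 members in FS against PWT, and 0 to 221 genes in PNST against PWT. In FS the log2 fold changes ranged over -0.48 to 0.31 for CDH5, -0.39 to 0.17 for VWF, -0.46 to 0.51 for TIE1, -0.17 to 0.44 for KDR, -0.40 to 0.50 for FLT1, -0.58 to 2.52 for SEMA3G and -0.084 to 1.52 for PROX1. In PNST they ranged over -0.34 to 0.032 for PECAM1, -0.11 to 0.20 for TIE1, -0.38 to 0.36 for TEK, -0.52 to 0.12 for CLDN5, -0.090 to 0.21 for KDR, -0.73 to 0.073 for FLT4 and -0.18 to 0.39 for VEGFA. In PWT they ranged over -0.33 to 0.065 for TIE1 and -0.15 to 0.47 for FLT1.

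The call of FLT4 in FS against PNST was lost without S1-2, S1-5 or S1-10. TEK passed in FS without S1-9, at -1.77 with an edgeR adjusted p of 0.0442 (range over alternatives 0.0261 to 0.732), and in FS against PWT without S1-4, S1-9, S2-3, S2-6 or S2-9. FLT4 passed in PWT without S2-7, with an edgeR adjusted p of 0.0482 (range 0.00985 to 0.464) at a log2 fold change of -1.68, with 6 of 6 PWT below the median of the others. The genes called in FS numbered 940 without S1-11 and in FS against PWT 1103 without S1-11, and in FS against PNST 650 without S1-10. Genes called in PNST against the other types numbered 1 without S1-3, S1-4 or S1-5 and 3 without S1-7. Genes called in PWT numbered 205 without S1-3, 197 without S1-9, 212 without S1-11, 138 without S2-3, 14 without S2-4, 153 without S2-9 and 11 without S2-11. In PNST against PWT they numbered 0 without S1-3, S1-5, S1-9, S1-10, S2-3, S2-4 or S2-11, 1 without S1-4, 2 without S1-7 and 5 without S2-9, and 49 without S1-2, 159 without S1-11, 137 without S1-12, 80 without S2-6, 221 without S2-7 and 99 without S2-8. The cause of these changes was not tested.

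No paired analysis was possible because replicate numbers were given in the order of the samples and do not pair tumors of different dogs. Depth limits CLDN5 and TIE1, whose counts were few, and the tumor S1-12 with 507728 counts.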
